A study of Manihot esculenta with 4 samples.

Results

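The comparison described here is that of leaves of the cassava cultivar Xinxuan048 under drought with leaves of the same cultivar under control conditions. Its members are the 2 Xinxuan048 libraries among the 4 libraries of the series, chosen by the cultivar and stress labels. The other 2 libraries are the control and drought leaves of the cultivar KU50. Cassava, Manihot esculenta, is a tropical crop grown for its starchy storage roots. Total RNA of leaf was sequenced, and each group held 1 library, so no value below has a replicate check and no difference has a test. The labels gave no genotype beyond the cultivar name, no age, no length or severity of drought, and no number of plants.

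Leaves under drought are known to close their stomata, which saves water and limits the uptake of carbon dioxide. The hormone abscisic acid is known to carry much of this response and to raise transcripts for protective proteins and for the making of osmolytes. Transcripts of photosynthesis make up a large part of leaf RNA and are known to decline in many drought-stressed plants. The files do not pair their gene tags with names or descriptions, and 0 of the 27146 tags matched a table of 34312 RefSeq cassava genes. The genes below therefore appear by tag, position and level, without a function. Markers of leaf and of other cell types could not be looked up.

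Levels are FPKM as the authors deposited them, that is, fragment numbers divided by the length of the transcript and by the size of the library. A gene absent from a library's file is called unlisted and was taken as 0 FPKM. Of 25845 genes listed in at least 1 Xinxuan048 library, 19224 averaged 1 FPKM or more across this pair of libraries and were kept. Ratios are log2 ratios of FPKM + 1, drought to control, a scale that understates differences of genes with low values. Of the kept genes, 75 were unlisted in control and 20 were unlisted in drought. Loci under 500 bases are set apart, because a few fragments can make a high FPKM there. They number 453 of the kept genes.

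Under drought more kept genes of Xinxuan048 stood higher than lower, and large differences were mostly upward. The highest log2 ratio among loci of at least 500 bases listed in both libraries was that of MANES_09G025200, which spans 3779466 to 3789354 of chromosome 9. Its level was 0.345 FPKM in the control library and 101 in the drought library, a log2 ratio of 6.25, and its rank among the kept genes was 19020 in control and 854 in drought. MANES_07G050400, at 5233947 to 5234589 of chromosome 7, was unlisted in control and reached 55.1 FPKM in drought. The lowest ratio, -3.98, was that of MANES_03G039900 at 3239470 to 3240390 of chromosome 3. Its control level was 143 FPKM, at rank 564, and its drought level 8.16 FPKM, at rank 11793. MANES_09G145900, at 26327191 to 26329507 of chromosome 9, followed at -3.16 with a control level of 25.2 FPKM and a drought level of 1.92. The genes named here on the upper side were thus near silence in control. Those on the lower side were well expressed there, which ratios this low require. Not every gene with a high ratio was near silence, and MANES_S113700, of 1036 bases, had 41.4 FPKM in control and a log2 ratio of 4.54. In bulk leaf RNA, fewer cells of a type and less RNA per cell cannot be told apart.

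Genes at least 2-fold higher under drought numbered 2089, or 10.9% of the kept genes, and genes at least 2-fold lower numbered 505, or 2.63%. At 4-fold the counts were 252 higher, or 1.31%, and 48 lower, or 0.25%. At 8-fold the counts were 65 higher and 5 lower, of which 51 and 2 were loci of at least 500 bases. The median log2 ratio of the kept genes was 0.37, and the middle 50% of genes lay between 0.02 and 0.68. Taken relative to that median, 877 genes stood 2-fold or more above it and 1191 stood 2-fold or more below. The predominance of higher genes depended on the scaling. Genes higher under drought made up 80.5% of those at least 2-fold apart as deposited, 82.5% with totals scaled to a common value and 88.3% with the totals of loci of at least 500 bases so scaled, a setting chosen after seeing the data. They made up 51.2% after upper-quartile scaling and 43.1% after scaling by a trimmed mean of log ratios. The median of the kept genes was 0.06 and -0.02 under the latter pair, and 0.40 and 0.49 under the scaled totals.

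The ratio that chose the 2 sets of genes contains the control level, so their Xinxuan048 levels are a description. The 2089 higher genes had a median of 2.42 FPKM in control and 8.24 in drought. Of these, 582, or 27.9%, were under 1 FPKM in control, against 5.87% of all kept genes. The 505 lower genes had medians of 21.9 FPKM in control and 7.73 in drought. In KU50 control, a library the ratio does not use, the medians were 4.35 FPKM for the higher genes, 20.6 for the lower genes and 9.6 for all kept genes. Together the lower genes held 22.6% of all FPKM in control and 8.97% in drought. The higher genes held 2.95% in control and 15.7% in drought. Within the higher genes, loci under 500 bases carried much of that gain, and the 1958 higher genes of at least 500 bases held 2.5% in control and 8.11% in drought.

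**Figure D1:**
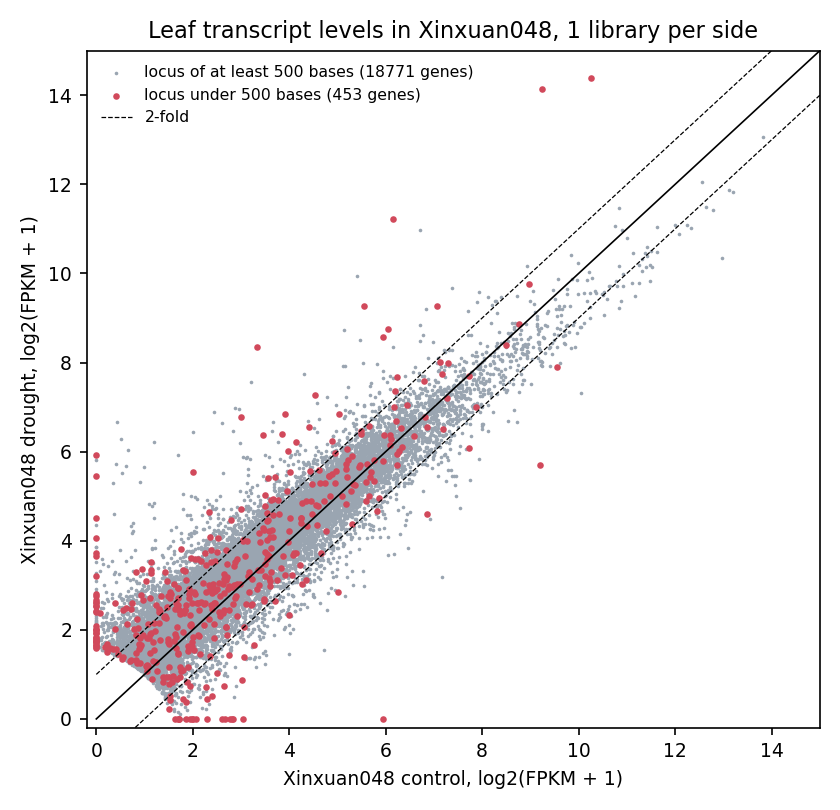
Level of each kept gene in Xinxuan048 control (horizontal axis) and drought (vertical axis), both as log2(FPKM + 1), with 1 library per side. Grey points are the 18771 loci of at least 500 bases, red points the 453 shorter loci, the solid line marks equal levels and the dashed lines mark 2-fold. Most of the grey points of highest level lie below the solid line, and a few red points, led by those at 21591 and 18202 FPKM, stand far above it.

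The most abundant leaf transcripts of Xinxuan048 were lower under drought. MANES_15G086700, at 6335592 to 6336676 of chromosome 15, was first in control with 14591 FPKM, or 2.31% of the library, and had 8543 FPKM in drought. MANES_01G011500, at 2015240 to 2017292 of chromosome 1, was second in control with 9446 FPKM and had 3639 in drought, a log2 ratio of -1.38. MANES_04G083800, at 22107965 to 22110212 of chromosome 4, had a control level of 6013 FPKM and a drought level of 4275 and was, after MANES_15G086700, the most abundant locus of at least 500 bases in drought. Each of these 3 genes was therefore lower in drought while keeping a place near the top.

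The most abundant genes were ranked in each library in turn. Of the 10 most abundant loci of at least 500 bases in control, 10 were lower in drought and 8 at least 2-fold lower. Of the 100 most abundant, 92 were lower, 43 at least 2-fold lower and 0 at least 2-fold higher, and 77 were also among the 100 most abundant in drought. These 100 genes held 32.5% of all FPKM in control and 17.5% in drought. Ranking by the control level favours lower ratios, and ranking by the drought level favours higher ones. Of the 100 most abundant in drought, 73 were lower, 28 at least 2-fold lower and 13 at least 2-fold higher. MANES_04G078000, at 21627913 to 21628905 of chromosome 4 and chosen after its values were seen, had one of the larger differences among them. Its control level was 8076 FPKM, at rank 4, and its drought level 1302 FPKM, at rank 27.

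The median log2 ratio, as deposited, was lower in each class of higher Xinxuan048 mean. Among loci of at least 500 bases the median was 0.47 for genes with a mean of 1 to 3 FPKM, 0.46 for 3 to 10, 0.37 for 10 to 30 and 0.17 for 30 to 100. It was -0.12 for 100 to 300 FPKM, -0.47 for 300 to 1000 and -0.99 for the 54 genes of at least 1000. The share of genes at least 2-fold lower was 2.16% in the lowest class and 46.3% in the highest, against 2.46% of all loci of at least 500 bases. The share at least 2-fold higher was 17.7% in the lowest class and 1.85%, or 1 gene, in the highest, against 10.4% of all. Classing genes by a mean that includes the control level can itself lower the ratio of high classes. With genes classed by their KU50 mean, which uses neither Xinxuan048 library, the median was 0.44 in the lowest class and 0.46 for 3 to 10 FPKM. It was -0.48 for 300 to 1000 FPKM and -1.0 in the highest. The highest class was also the lowest in median when all loci were scaled by totals, by the upper quartile or by the trimmed mean, with medians from -1.39 to -0.92, against 0.08 to 0.49 for 3 to 10 FPKM. The class of 10 to 30 FPKM, at 0.37 as deposited, turned to -0.05 with the trimmed mean, and that of 30 to 100 FPKM turned from 0.17 to -0.17 and -0.27 with the upper quartile and the trimmed mean.

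**Figure D2:**
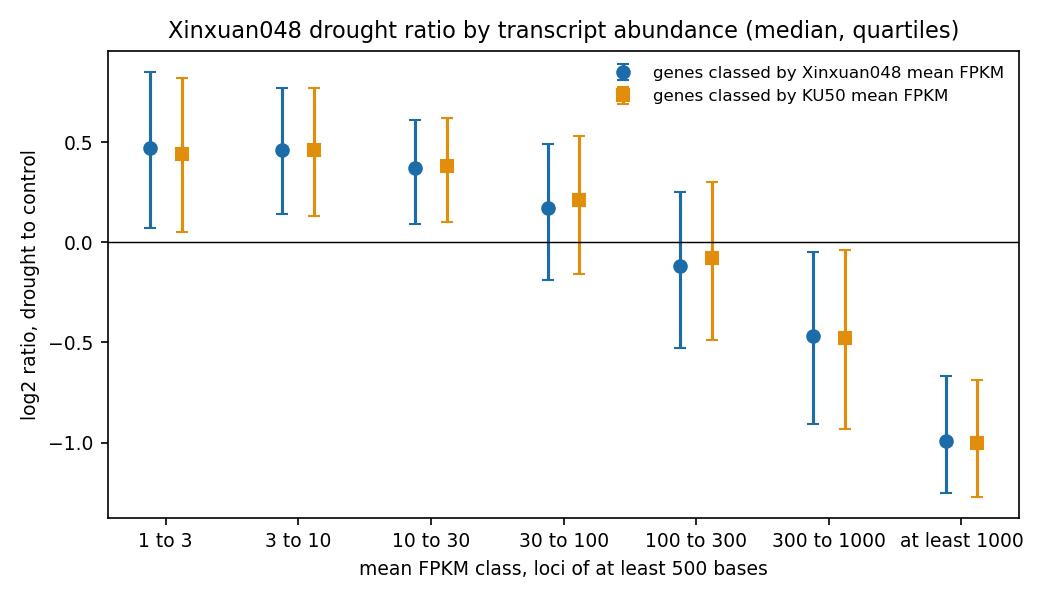
Log2 ratio of drought to control in Xinxuan048 (vertical axis) for loci of at least 500 bases in 7 classes of mean FPKM (horizontal axis). Points are medians over genes and bars run from the lower to the upper quartile of genes, with blue circles for classes by the Xinxuan048 mean and orange squares for classes by the KU50 mean. Both series go from about 0.4 to 0.5 in the lowest classes to about -1 in the highest.

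The leaf's FPKM were accordingly spread over more genes in drought. In control, 425 loci of at least 500 bases held 50% of the FPKM of such loci, and in drought it took 1135. The 100 most abundant of them held 33.1% in control and 20.7% in drought. Over all loci the numbers of genes for 50% of FPKM were 438 and 915. The 10 most abundant genes of any length held 11.9% in control and 11.5% in drought, while the 10 most abundant of at least 500 bases held 12.1% and 6.25% of the FPKM of such loci. In KU50 the genes needed for 50%, among loci of at least 500 bases, went from 555 in control to 1116 in drought.

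**Figure D3:**
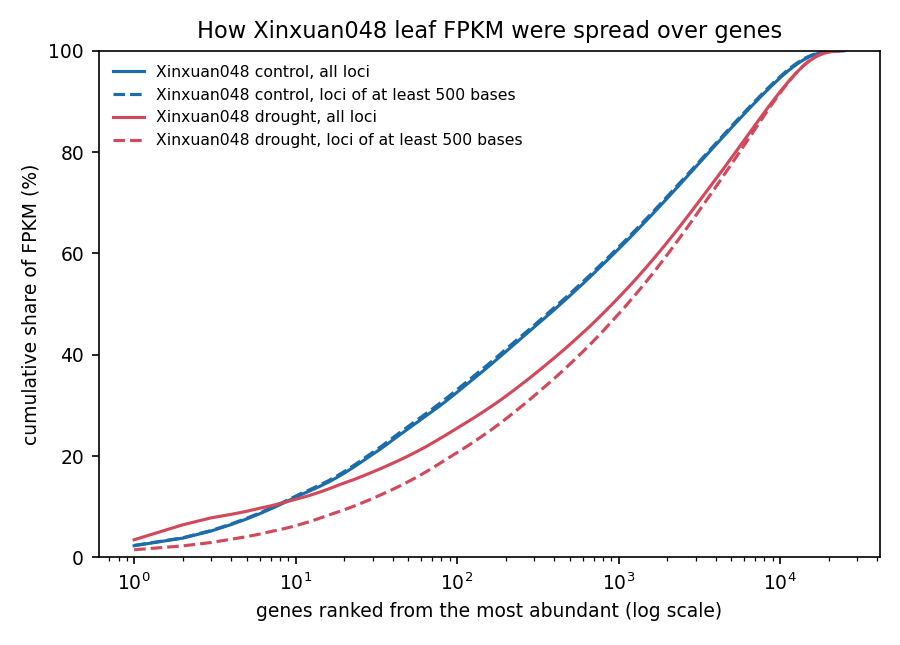
Cumulative share of FPKM (vertical axis, percent) over genes ranked from the most abundant (horizontal axis, log scale) in Xinxuan048 control (blue) and drought (red). Solid lines take all listed loci and dashed lines those of at least 500 bases. The drought curve without short loci lies below the control curve throughout the first 1000 genes, and the curve with them starts above it.

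Loci under 500 bases took a larger place in the drought library. The 453 kept short loci held 1.81% of FPKM in control and 8.93% in drought. Of them 131, or 28.9%, were higher by 2-fold or more and 43, or 9.49%, lower by as much, and both shares exceed the 10.9% and 2.63% of all kept genes. Their log2 ratios had an SD across loci of 1.34, against 0.64 for loci of at least 500 bases. Short loci also varied in KU50, where the SD was 1.24, and held 1.95% and 2.16% of FPKM there in control and drought.

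A pair of short loci carried most of the gain. MANES_05G208300, 183 bases of chromosome 5 between 28370606 and 28370788, had a control level of 1217 FPKM and a drought level of 21591, where it was the most abundant of all genes with 3.49% of FPKM. MANES_13G124700, 189 bases of chromosome 13 between 25180111 and 25180299, had a log2 ratio of 4.90, from levels of 608 FPKM in control and 18202 in drought. In KU50 the first had 1964 FPKM in control and 2194 in drought, and the second had 673 and 654. The drought library of Xinxuan048 thus stood apart from the other 3 at both loci. The files do not say what kind of RNA these loci hold, so their rank and share are not those of a known messenger RNA. Together they held 0.289% of FPKM in control and 6.44% in drought, and the other 451 short loci held 1.52% and 2.5%. In the other direction, MANES_01G106700, 250 bases of chromosome 1 between 22838371 and 22838620, had a control level of 752 FPKM and a drought level of 238.

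The same pattern, high in Xinxuan048 drought and level elsewhere, was seen at loci of unplaced sequences. With limits chosen after the values were seen, 7 loci had at least 100 FPKM in drought, a log2 ratio of at least 3 in Xinxuan048 and a ratio under 0.5 in size in KU50. Of the 7, 5 were under 500 bases and 4 lay on unplaced sequences. Their ratios in Xinxuan048 ran from 3.72 to 5.06, and together they held 0.317% of FPKM in control and 7.13% in drought. The 7 include MANES_05G208300 and MANES_13G124700, the pair described above, which held 0.289% in control and 6.44% in drought. Most of the share of the 7 in drought is therefore that of this pair and not of unplaced sequences. MANES_S113100, 483 bases at the start of an unplaced sequence, had a control level of 70.4 FPKM and a drought level of 2380, against 98.6 and 115 in KU50. MANES_S113700, 1036 bases, had 41.4 and 986 FPKM, against 46.8 and 38.3 in KU50. The 437 kept genes of unplaced sequences together held 1.47% of FPKM in control and 2.09% in drought, and 1.41% and 1.48% in KU50.

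Of the 18771 kept loci of at least 500 bases, 44 were switched on in Xinxuan048. Switched on means under 0.5 FPKM or unlisted in control and at 5 FPKM or more in drought. By the reverse limits, 1 was switched off. The 44 had drought levels from 5.09 to 101 FPKM with a median of 8.36, and 13 of them were unlisted in control. After MANES_09G025200 the highest was MANES_11G164800, at 27217167 to 27218398 of chromosome 11, whose control level was 0.427 FPKM and drought level 77.0 FPKM. The single gene switched off was MANES_01G103100, at 22545115 to 22546699 of chromosome 1, whose control level was 6.22 FPKM and drought level 0.406 FPKM. These counts follow the limits, and no other scaling was tried for them. With 2 FPKM as the lower limit for on, they were 231 and 24, and with 10 FPKM they were 16 and 0. Among the 453 kept loci under 500 bases 13 were switched on and 7 off, and 12 and 7 of these were unlisted on the low side.

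In KU50 the 44 switched-on genes fell into different patterns. In KU50 drought 23 of them stood 2-fold or more higher as well, 16 stood 2-fold or more lower and 5 were under 2-fold apart, where 10.5% and 5.2% of all kept genes were higher and lower. The 23 were low in both control leaves, with medians of 0.375 FPKM in KU50 and 0.17 in Xinxuan048, and had 9.28 and 8.64 FPKM in drought. The 16 ran the other way in KU50, from a median of 14.8 FPKM in control to 0.188 in drought, against 0.207 and 5.92 in Xinxuan048. Each of the 16 had at least 3.66 FPKM in KU50 control. The limits fix their low level in Xinxuan048 control, and a 2-fold lower ratio requires expression in KU50 control. The contrast between the control leaves thus follows in part from how these genes were chosen. MANES_16G096600, at 25282306 to 25284525 of chromosome 16 and chosen after its values were seen, belongs to the 5 others. It had 0.444 FPKM in Xinxuan048 control, 44.8 in Xinxuan048 drought, 16.5 in KU50 control and 19.2 in KU50 drought, so the Xinxuan048 control library stood apart from the other 3.

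**Figure D4:**
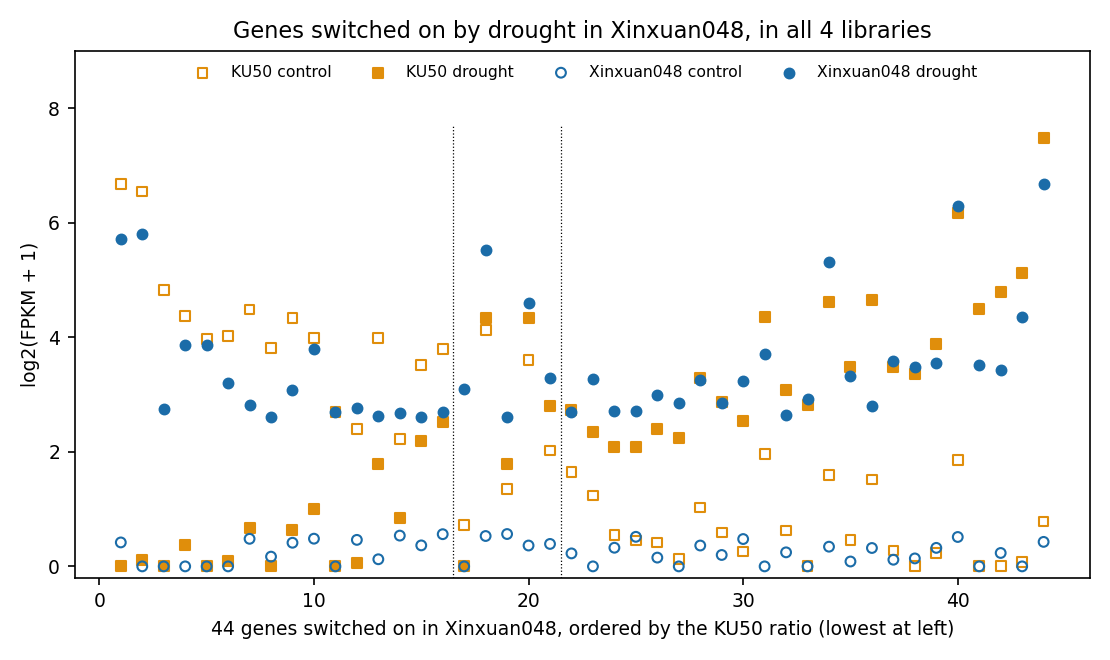
Levels of the 44 genes of at least 500 bases switched on in Xinxuan048, as log2(FPKM + 1) on the vertical axis, ordered from left to right by their KU50 log2 ratio. Open symbols are control and filled symbols drought, with orange squares for KU50 and blue circles for Xinxuan048, and dotted lines set off the 16 genes at least 2-fold lower and the 23 at least 2-fold higher in KU50 drought. At the left the KU50 control squares stand high where the Xinxuan048 control circles are near 0.

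Genes at least 2-fold apart in Xinxuan048 differed in the same direction in KU50 at larger shares than the kept genes at large, and the cultivars' libraries share no sample. Of the 2089 higher genes, 903, or 43.2%, were at least 2-fold higher in KU50, where 10.5% of the same 19224 genes were. These 903 made up 44.9% of the genes higher in KU50. Of the 505 lower genes, 282, or 55.8%, were at least 2-fold lower in KU50, against 5.2% of all, and they made up 28.2% of the 999 genes lower in KU50. The median KU50 log2 ratio was 0.89 for the higher and -1.13 for the lower genes of Xinxuan048. Opposite differences of at least 2-fold were seen in KU50 for 132 of the higher genes, or 6.32%, and for 17 of the lower, or 3.37%. The difference between the cultivars has no test.

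Likeness to KU50 differed between abundance classes. For loci of at least 500 bases, Pearson's correlation of the cultivars' ratios across genes was 0.27 in the class of 1 to 3 FPKM, 0.49 for 3 to 10, 0.56 for 10 to 30, 0.74 for 30 to 100 and 0.78 for 100 to 300. It was 0.54 for the 172 genes of 300 to 1000 FPKM and 0.94 for the 54 of at least 1000. Spearman's correlation was 0.38 in the lowest class, 0.74 for 300 to 1000 FPKM and 0.86 in the highest. With KU50-mean classes, Pearson's correlation was 0.38 for 1 to 3 FPKM, 0.59 for 30 to 100 and 0.62 for 100 to 300. It was 0.63 for 300 to 1000 FPKM and 0.86 in the highest class, so the dip at 300 to 1000 depended on the classing. Genes of a library share its depth and scaling, so these values describe the 4 libraries and carry no p-value. Ratios of FPKM + 1 understate differences of genes with low values, and the effect of this on the low classes was not tested. Among the 250 genes of at least 300 FPKM in Xinxuan048 control, 71 were at least 2-fold lower in drought. Of these 71, 71 were also lower in KU50 drought, 39 of them at least 2-fold, while 188 of the 250 were lower in KU50.

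**Figure D5:**
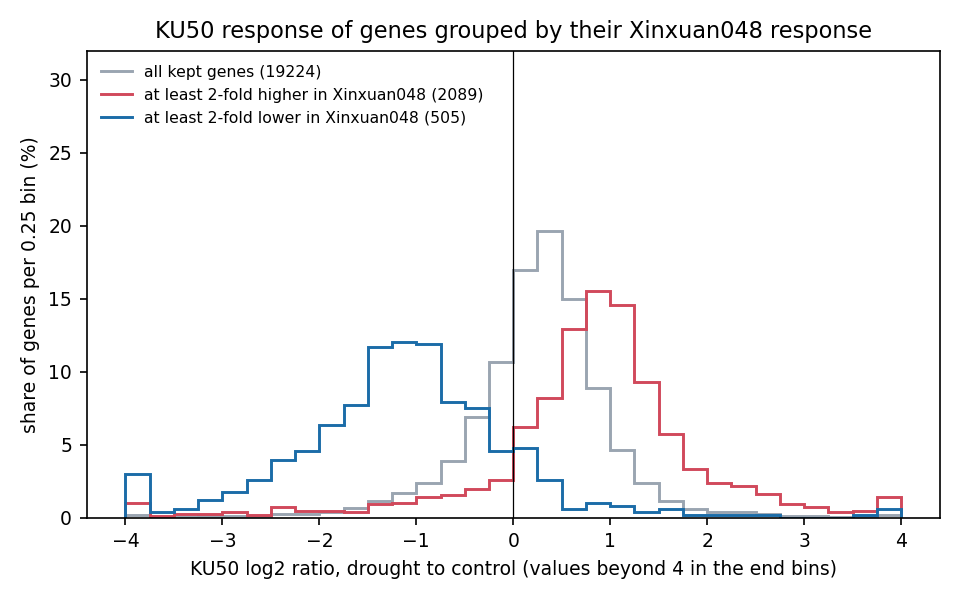
Distribution of the KU50 log2 ratio of drought to control (horizontal axis, values beyond 4 counted in the end bins) as a share of genes per bin in percent (vertical axis). Grey is all 19224 kept genes, red the 2089 genes at least 2-fold higher and blue the 505 at least 2-fold lower in Xinxuan048. The medians are 0.30, 0.89 and -1.13.

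Genes at least 2-fold apart occurred on every chromosome. The share at least 2-fold higher was lowest on chromosome 11, at 9.25%, and highest on chromosomes 10 and 17, at 12.8% each. The unplaced sequences stood at 14.2%. For loci of at least 500 bases alone, the share higher was lowest on chromosome 11, at 8.58%, and highest on chromosome 17, at 12.3%. On chromosome 10 it was then 11.6%, below the 11.8% of chromosomes 8 and 16. Over all kept genes, the share at least 2-fold lower ran from 1.13% on chromosome 10 to 3.96% on chromosome 4. Chromosome 10 also had the highest median log2 ratio, 0.43. In KU50 the share lower on chromosome 10 was 3.77%, the lowest of the chromosomes, and 3.84% on chromosome 9 was next.

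Some of these genes were neighbours. Of 2027 higher genes placed on chromosomes, 524, or 25.9%, lay next to another higher gene among the kept genes, against 20.2% of the 18787 placed genes of any response. For the 492 lower genes the numbers were 61, or 12.4%, against 5.11%. Neighbouring genes can be copies that share reads, and how the authors counted such reads is not given in the sources used here. The longest runs held 6 genes, and 2 such runs were higher and 1 lower.

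One run of 6 higher genes lay on chromosome 12 from 4076170 to 4258804. Its first 2 genes were at least 2-fold higher in KU50 drought too. The following 4, between 4136922 and 4258804, had from 0 (unlisted) to 0.822 FPKM in Xinxuan048 control and from 2.96 to 7.41 in drought, while in KU50 they had from 6.4 to 19.1 FPKM in control and from 0 to 0.557 in drought. These 4 neighbours thus differed between drought and control in opposite directions in the cultivars. With 1 library per group, a response to drought and a difference between the sampled plants cannot be told apart. The other run of 6 lay on chromosome 8 from 5483137 to 5685197 and began with MANES_08G054400, chosen after its values were seen. That gene had 0.995 FPKM in Xinxuan048 control and 49.6 in drought, against 366 and 1.75 in KU50. The run of 6 lower genes spanned 26.7 kb of chromosome 4, from 21820909 to 21847657, in loci of 282 to 629 bases. Their log2 ratios ran from -2.05 to -1.08 in Xinxuan048 and from -1.95 to 1.26 in KU50.

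Direct neighbours also differed in direction. MANES_15G008400, at 792220 to 793130 of chromosome 15, and MANES_15G008500, at 794914 to 795658, were also singled out after their values were seen. The first, in Xinxuan048, had 0.336 FPKM in control against 51.5 in drought, and the second 186 FPKM against 25.5. In KU50 both were high in control, at 101 and 147 FPKM, and in drought the first was unlisted and the second had 2.93 FPKM.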

How the data were processed

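The labels give leaf RNA libraries of 2 cultivars under control and drought, with 1 library each. FPKM per gene were deposited by the authors, and the submitters' processing notes name TopHat2 2.0.12 and Cufflinks without roles or settings. The genome build, annotation and Cufflinks version are not given in the sources used here. Starts in the files count from 0, and positions are printed counted from 1. FPKM totals were 630839 in Xinxuan048 control and 618290 in drought, and 24405 and 25009 genes were listed. The number of fragments is unknown, so no counting error can be given.

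Files were joined by gene tag in Python 3.11.15 with pandas 2.3.3. Genes averaging 1 FPKM or more across both Xinxuan048 libraries were kept, a pseudocount of 1 was used, and no rescaling was applied. The ratio and the trimmed-mean scaling were checked on simulated data with as many genes raised as lowered. Those data held no change that varied with abundance, so the check cannot tell which scaling suits these libraries. No test was run, since each side has 1 library. Named genes are at most 2 tags in each direction by highest or lowest ratio, abundance, switching and short loci, with others marked. Members, lists and limits were chosen with earlier results of these data known. The gene lists by description could not be applied. Alternatives were 4 other scalings, 2 other pseudocounts, 2 other filters and other limits.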

Additional observations from a re-analysis of the deposited data

Results flagged for a closer look

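Some genes stood higher under drought in Xinxuan048 and lower in KU50, and the difference between the cultivars was not tested. Each group has 1 library, so a drought response and a difference between the sampled plants cannot be told apart here. Of the 44 genes of at least 500 bases switched on in Xinxuan048, 16 were at least 2-fold lower in KU50 drought, where 5.2% of all kept genes were. Over the 2089 higher genes of Xinxuan048 the count was 132, or 6.32%. MANES_07G050400 had 55.1 FPKM in Xinxuan048 drought and was unlisted in control, against 92.2 FPKM in KU50 control and 0.0831 in drought. MANES_15G008400 had 51.5 FPKM in Xinxuan048 drought and 0.336 in control, and in KU50 went from 101 FPKM in control to unlisted in drought. MANES_08G054400 had 49.6 FPKM in Xinxuan048 drought and 0.995 in control, against 1.75 and 366 in KU50.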

How the results depend on the processing

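No paired analysis was possible because each group has 1 library and the labels carry no replicate numbers, and for the same reason no library was left out. The cause of each shift below was not tested, apart from stricter filters and limits, which leave fewer genes to count. Depth is unknown, so no limit of detection is given. The scaling by totals of loci of at least 500 bases was chosen after the data were seen.

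The 2089 higher genes became 1083 with upper-quartile scaling, 948 with the trimmed mean, 3269 with a pseudocount of 0.1, 539 with one of 5, 1093 with a mean of at least 5 FPKM and 252 at 4-fold. The 505 lower genes became 1032 with upper-quartile scaling, 1252 with the trimmed mean, 254 with a pseudocount of 5 and 48 at 4-fold. Of the 505, 474 were still called with scaled totals and 381 with totals of loci of at least 500 bases. The share higher among genes at least 2-fold apart was 80.5%. It became 82.5% with scaled totals, 88.3% with totals of loci of at least 500 bases, 51.2% with the upper quartile, 43.1% with the trimmed mean, 82.7% and 68% with pseudocounts of 0.1 and 5, and 74.8% with a mean of at least 5 FPKM. The median log2 ratio of 0.37 turned to -0.02 with the trimmed mean. It was 0.06 with the upper quartile, 0.40 with scaled totals, 0.49 with totals of loci of at least 500 bases, 0.42 and 0.25 with pseudocounts of 0.1 and 5, 0.29 without a filter and 0.34 with a mean of at least 5 FPKM.

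Of the higher genes, 43.2% were also higher in KU50. This share was 40.8% with the upper quartile, 40.2% with the trimmed mean, 47.9% and 50.8% with pseudocounts of 0.1 and 5, and 50% with a mean of at least 5 FPKM. The 55.8% of lower genes also lower in KU50 became 50.4% with the trimmed mean, 61.4% with a pseudocount of 5 and 64.5% with a mean of at least 5 FPKM. The 44 genes switched on became 16 from 10 FPKM, 231 from 2 FPKM, 13 if unlisted in control and 100 if under 1 FPKM there. The 1 gene switched off became 0, 24, 0 and 4 in the same order, and 8 over all loci. Genes of at least 300 FPKM held 42.1% and 33.1% of control and drought FPKM, against 41.4% and 25.7% for loci of at least 500 bases and 40.3% and 30.9% with classes by the KU50 mean. Short loci held 0.617% and 7.06% with a limit of 250 bases, and 13.8% and 17.6% with one of 1000.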

Other observations

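The Xinxuan048 ratio also varied with the span of the locus. Of the loci of at least 500 bases, the 25% with the shortest spans, from 500 to 2214 bases, had a median log2 ratio of 0.27, and the 25% with the longest, from 6085 to 63652 bases, had 0.44. Large differences in either direction were more frequent at the short end. Genes at least 2-fold lower were 6.12% of the shortest 25% and 0.277% of the longest, and genes at least 2-fold higher were 14.7% and 7.95%. Between 3 and 30 FPKM, genes at least 2-fold lower were 4.63% of the shortest 25% and 0.0994% of the longest. The median level there was still lower in the shortest 25%, at 8.83 FPKM, than in the longest, at 10.6, so levels were not matched. Locus span includes introns, so it differs from the length that enters FPKM.

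The lower genes had a median locus span of 1682 bases and the higher genes 2852, against 3651 for all kept genes. MANES_14G094100, 253 bases on chromosome 14 from 7640140 to 7640392 and chosen after its values were seen, had 590 FPKM in Xinxuan048 control and 51.3 in drought, against 353 and 255 in KU50.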
